A study of Homo sapiens with 24 samples.

Results

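PRMT8 and the other protein arginine methyltransferases were examined in three-dimensional LUHMES cultures exposed to rotenone. The members were the 9 genes of the PRMT family, found through the RefSeq transcript that each array probe was designed against. They were 9 of 21239 genes tested and were measured by 14 of 50599 probes, on 23 spots of each array. The family was chosen by the PRMT8 signal itself, which had been lower with 100 nM rotenone on both days in an earlier analysis of the same arrays, so that its differences from DMSO are given as values without a test. All 14 probes passed the filter on dim signal, all were well above background on all 24 arrays, and none had a saturated spot.

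LUHMES is a human mesencephalic cell line, conditionally immortalized by a v-myc transgene under tetracycline control, which stops dividing and turns into dopaminergic neurons when tetracycline is added. The cells were grown as aggregates on a gyratory shaker in a differentiation medium with cAMP, GDNF, tetracycline and N2, so all groups share 1 cell line, the transgene and this medium. Rotenone, an inhibitor of mitochondrial complex I, was added on day 7. The day 8 groups were DMSO in the amount carried by the 100 nM dose, and rotenone at 50 nM for 12 h, at 50 nM for 24 h or at 100 nM for 24 h. On day 15 the same treatments had been followed by wash-out and 7 days of recovery. Each of the 8 groups had 3 arrays of total RNA labelled with Cy3, 1 on each of 3 slides. Nothing in the sources says that the 3 samples came from separate cultures, so p values measure the spread between samples only. Values are log2 signals after background correction, quantile normalization and adjustment of slide 1. Because probes differ in brightness, levels are compared between groups for 1 gene and never between genes.

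The 10 neuronal markers were well above background on all arrays, as were 5 of 6 dopaminergic markers. The exception was SLC18A2, the vesicular monoamine transporter, seen above background on 3 of the 24 arrays. TH, the rate-limiting enzyme of dopamine synthesis, fell by 2.94 on the log2 scale from day 8 to day 15 in DMSO (limma, adjusted p = 2.2e-08), and SLC6A3, the dopamine transporter, fell by 2.07 (limma, adjusted p = 1.3e-05). NR4A2, a transcription factor of dopaminergic neurons, rose by 1.57 (limma, adjusted p = 2.3e-07). Of the 6 markers 2 fell and 2 rose, with a median of -0.03, in a comparison where 23.2% of all genes passed. None of 5 astrocyte and 4 tested microglial markers was well above background on all arrays, against 3 of 5 oligodendrocyte markers. The array of day 15 DMSO, replicate 1 was placed by its label, since its scan name does not mention DMSO. The array of day 15, 100 nM, replicate 3 stood apart. Its median correlation with the other arrays of its group was 0.968, the lowest of the 24 arrays, and 60.3% of its spots were well above background, the highest share on slides 2 and 3. The PRMT8 and PRMT3 differences on day 15 are given with and without it.

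Protein arginine methyltransferases move methyl groups from S-adenosylmethionine to the side chain nitrogens of arginine. Type I enzymes (PRMT1, PRMT2, PRMT3, CARM1, PRMT6 and PRMT8) finish with asymmetric dimethylarginine, type II enzymes (PRMT5 and PRMT9) with symmetric dimethylarginine, and the type III enzyme PRMT7 stops at monomethylarginine. Common substrates are histone tails and the arginine and glycine rich stretches of RNA-binding proteins. PRMT8 is the closest relative of PRMT1, but it is expressed mainly in the nervous system and is held at the plasma membrane by a fatty acid on its N terminus.

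RefSeq gives PRMT8 a pair of transcription starts on chromosome 12, and the 250 bases before each are printed to show how unlike they are, with the window of PRMT1 for comparison. The positions are those of GRCh38.p14, all on the plus strand. Every CG dinucleotide is in capitals.
PRMT8, chr12:3381099-3381348: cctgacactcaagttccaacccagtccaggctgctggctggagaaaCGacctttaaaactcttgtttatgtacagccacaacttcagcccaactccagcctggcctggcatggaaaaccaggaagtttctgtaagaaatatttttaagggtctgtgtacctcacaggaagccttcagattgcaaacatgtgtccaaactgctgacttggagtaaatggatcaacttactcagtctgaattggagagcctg
PRMT8, chr12:3490953-3491202: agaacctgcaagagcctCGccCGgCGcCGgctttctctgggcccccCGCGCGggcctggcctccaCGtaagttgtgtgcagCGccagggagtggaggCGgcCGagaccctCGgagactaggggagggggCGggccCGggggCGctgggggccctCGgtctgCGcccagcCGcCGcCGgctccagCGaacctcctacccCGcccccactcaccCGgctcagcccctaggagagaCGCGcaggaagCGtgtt
PRMT1, chr19:49677021-49677270: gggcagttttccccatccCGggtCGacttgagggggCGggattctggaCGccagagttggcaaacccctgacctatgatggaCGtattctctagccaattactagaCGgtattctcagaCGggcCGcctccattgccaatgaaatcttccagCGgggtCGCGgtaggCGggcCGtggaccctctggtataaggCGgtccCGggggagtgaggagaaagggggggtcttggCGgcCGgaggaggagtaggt
The first PRMT8 window held 1 CG dinucleotide and 46.4% G and C, and only 6.06% of 35114 windows of the same length in the RefSeq table had fewer CG dinucleotides. The second PRMT8 window held 26 CG dinucleotides and 74.4% G and C, with fewer in 80.4% of windows. PRMT1 lay between them with 17. The GC box GGGCGG, searched on both strands as GGGCGG or CCGCCC, was found 0 times, 2 times and 1 time in this order, and 42.6% of all windows held it. A match is a run of letters and not a binding site. The probe (A_23_P139740) was matched by transcript, which does not show which start was in use in these cells.

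In DMSO on day 8 the PRMT8 signal was 7.15, 7.17 and 7.12 on slides 1, 2 and 3, a mean of 7.15 ± 0.024 (SD, n = 3). After 12 h of 50 nM rotenone it was 6.77, 6.75 and 6.73, and after 24 h of 50 nM it was 6.50, 6.31 and 6.48. With 100 nM for 24 h it was 6.14, 6.48 and 5.92. Every rotenone array of day 8 was below every DMSO array of that day. Groups did not overlap for 28.5%, 28.1% and 23.6% of all genes with 100 nM, 50 nM for 24 h and 50 nM for 12 h, from which nothing is read for PRMT8. The group means were 6.75 ± 0.019, 6.43 ± 0.11 and 6.18 ± 0.28 (SD, n = 3 each). PRMT8 was thus 1.31-fold lower than DMSO after 50 nM for 12 h, 1.65-fold lower after 50 nM for 24 h and 1.96-fold lower after 100 nM. On the log2 scale these differences were -0.39, -0.72 and -0.97 (SE 0.23 each). All 3 comparisons share the day 8 DMSO arrays. In bulk RNA, fewer cells that express PRMT8 and less PRMT8 RNA per cell cannot be told apart.

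On day 15 the PRMT8 signal in DMSO was 6.41, 6.56 and 6.64. It was 6.47, 6.61 and 6.35 in cultures that had received 50 nM for 12 h, and 6.06, 6.75 and 6.45 in those that had received 50 nM for 24 h. Both 50 nM groups overlapped with DMSO, with differences of -0.06 and -0.11 (SE 0.23 each). After 100 nM it was 6.23, 6.19 and 5.08, all below the DMSO arrays, and the mean difference was -0.70 (SE 0.23). The array at 5.08 is the one that stood apart, and without it the difference was -0.34. When arrays were scaled to their 75th percentile in place of quantile normalization, the 3 arrays read 6.33, 6.17 and 6.28 against 6.57, 6.53 and 6.65 in DMSO. The difference was then -0.33, with no overlap between the groups. Under quantile normalization 7.84% of all genes did not overlap in this comparison, and the share with the other scaling was not computed. PRMT8 was chosen on this comparison, so nothing is read from the separation. PRMT3 (6.17) and PRMT9 (6.59) also had their lowest signal of the 24 arrays on the array that stood apart.

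**Figure D1:**
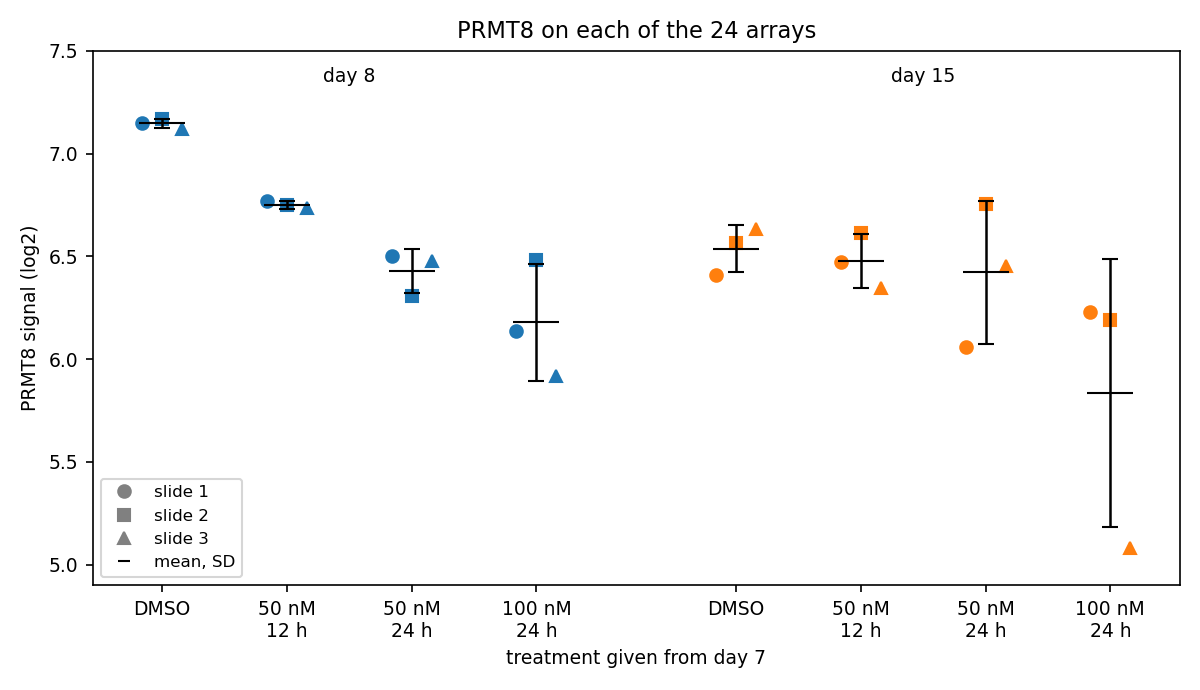
PRMT8 signal (log2) on each of the 24 arrays, by day and treatment, with 1 marker shape per slide and bars for the mean and SD of 3 arrays. The 3 day 8 DMSO arrays, from 7.12 to 7.17, lie above all the others, and 1 array of the day 15 group that had received 100 nM lies at 5.08.

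Ordered by mean, PRMT8 was highest in DMSO on day 8 (7.15), followed by 50 nM for 12 h on day 8 (6.75) and DMSO on day 15 (6.54). Neighbours in this part of the order did not overlap. The next groups were 50 nM for 12 h on day 15 (6.48), 50 nM for 24 h on day 8 (6.43), 50 nM for 24 h on day 15 (6.42), 100 nM on day 8 (6.18) and 100 nM on day 15 (5.83). From DMSO on day 15 downward each group overlapped with the next. The last place rests on the array at 5.08, since after 100 nM day 15 differed from day 8 by -0.34 with it and by 0.03 without it. PRMT8 was 0.61 lower on day 15 than on day 8 in DMSO on the log2 scale, which is given as a value because both control groups had served to choose the gene.

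Because every group had an array on every slide, the differences could also be taken within a slide before slide 1 was adjusted. With 100 nM on day 8 they were -1.01, -0.66 and -1.22 on slides 1, 2 and 3. With 50 nM for 24 h on day 8 they were -0.66, -0.88 and -0.64, and with 50 nM for 12 h they were -0.38, -0.42 and -0.39. All 9 within-slide differences of day 8 were below 0, but they share the day 8 DMSO arrays. PRMT8 was also chosen as lower with 100 nM, so nothing is read from this count. On day 15 the within-slide differences were -0.26, -0.34 and -1.63 after 100 nM, -0.31, 0.22 and -0.19 after 50 nM for 24 h, and 0.04, 0.06 and -0.31 after 50 nM for 12 h. After 50 nM they had both signs on day 15.

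**Figure D2:**
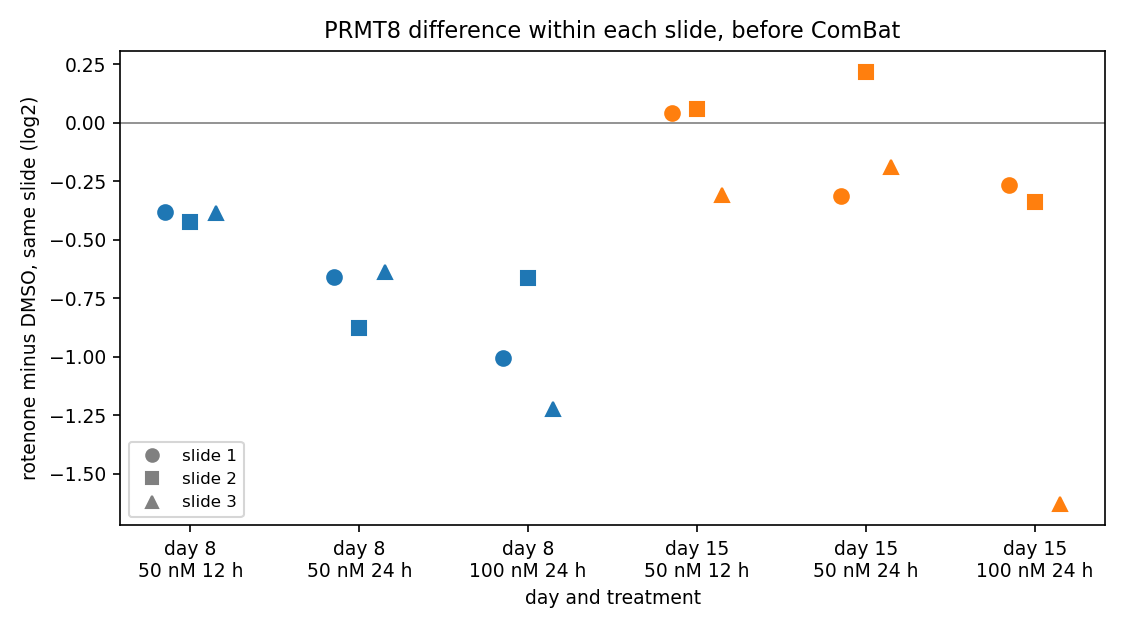
PRMT8 difference between rotenone and DMSO arrays of the same slide (log2, before adjustment of slide 1), by day and treatment, with 1 marker shape per slide. On day 8 all 9 points, which share the DMSO arrays of that day, lie below 0, from -0.38 to -1.22. On day 15 the points of 50 nM lie on both sides of 0.

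The comparisons that played no part in the choice of PRMT8 were tested. Within 50 nM on day 8, 24 h of exposure gave a signal 0.32 lower than 12 h (95% interval -0.80 to 0.15). The groups did not overlap, as for 16.9% of all genes and 3 of the 8 other members, and the difference did not pass the test (limma, adjusted p = 0.69). From day 8 to day 15 PRMT8 differed by -0.00 after 50 nM for 24 h (95% interval -0.48 to 0.47, limma adjusted p = 0.99) and by -0.27 after 50 nM for 12 h (95% interval -0.75 to 0.20, limma adjusted p = 0.41). The error was estimated over all 24 arrays, the one at 5.08 included. Between 100 and 50 nM for 24 h on day 8 the difference was -0.25 and the groups overlapped. The change with 100 nM on day 15 minus that on day 8 was 0.27 (SE 0.32), and 0.65 without the array that stood apart.

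The level of the neuronal markers is given beside PRMT8. The mean over the 10 markers lay between 12.35 and 12.48 on the day 8 DMSO arrays, between 12.24 and 12.27 with 100 nM, between 12.15 and 12.29 with 50 nM for 24 h, and between 12.26 and 12.47 with 50 nM for 12 h. With 100 nM on day 8, 3 of the 10 fell in limma, in a comparison where 9.48% of all genes passed. They were the microtubule protein MAP2 (-0.57), the RNA-binding protein ELAVL4 (-0.51) and the synaptic protein SNAP25 (-0.30), at limma adjusted p of 0.0028, 0.0072 and 0.041. Of 6 markers of progenitors or dividing cells, VIM, an intermediate filament, rose by 0.42 (limma, adjusted p = 0.028) and no other passed. Of the 6, 3 were above 0, the median was -0.07, and the list mean was 8.20 in DMSO and 8.14 with 100 nM. On day 15 the neuronal mean was between 12.36 and 12.55 in DMSO and between 12.37 and 12.47 after 100 nM. The part of these shifts in the PRMT8 values was not tested.

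None of the other members passed the test on day 8. With 100 nM on day 8, 0 of 8 passed the test at a limma adjusted p under 0.05, against 9.48% of all genes. With 50 nM, 0 of 8 passed after 24 h (8.02% of all genes) and 0 of 8 after 12 h (5.52%). At an unadjusted p under 0.05 the count was 1 of 8 with 100 nM, 0 of 8 with 50 nM for 24 h and 1 of 8 with 50 nM for 12 h, each time PRMT2, beside 20.6%, 19.6% and 16.8% of all genes. The log2 differences of the 8 ran from -0.15 to 0.22 with 100 nM (median 0.07), from -0.18 to 0.17 with 50 nM for 24 h (median -0.04) and from -0.01 to 0.25 with 50 nM for 12 h (median 0.13). The medians over all genes were -0.02, -0.02 and -0.01. Groups did not overlap for 2 of the 8 with 100 nM, against 28.5% of all genes.

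**Figure D3:**
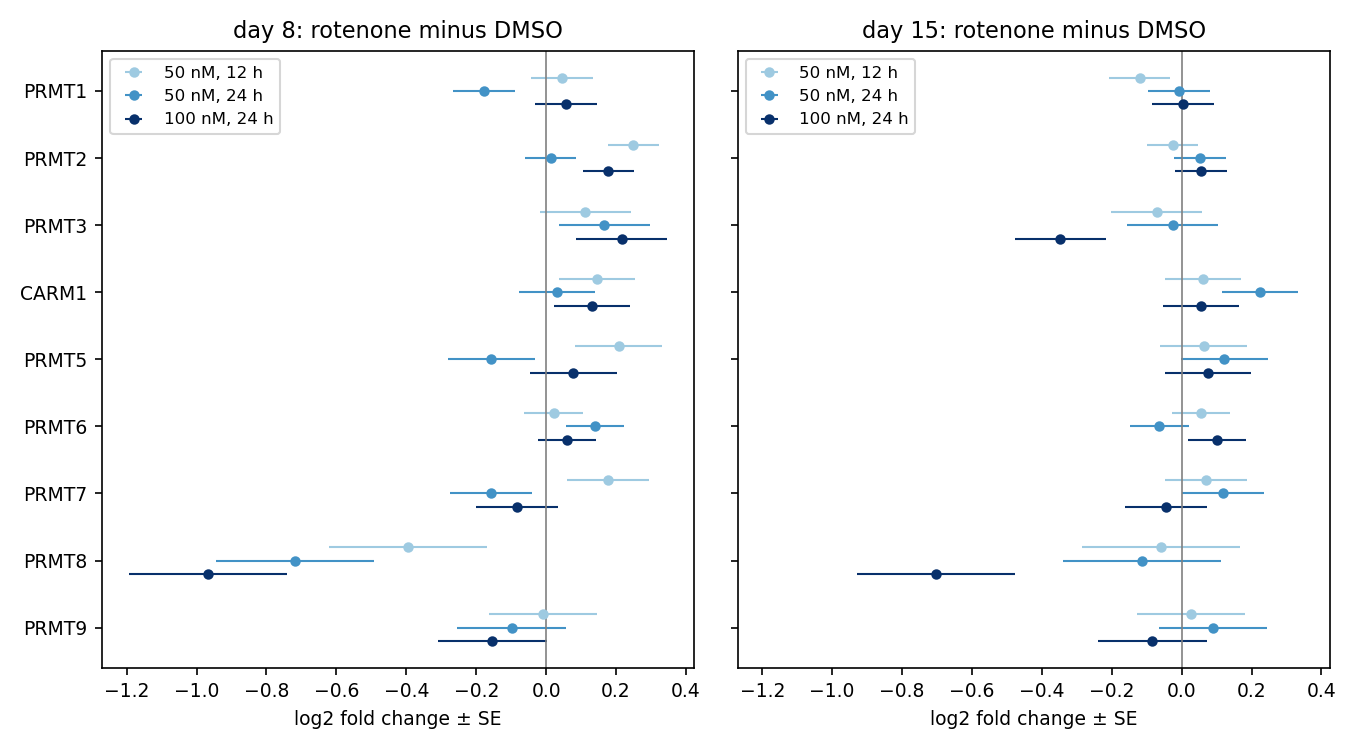
Log2 fold change of rotenone over DMSO for the 9 members on day 8 and on day 15, with points for the fitted difference and bars for its SE, and 1 colour per treatment. PRMT8, which was chosen for its lower signal, lies between -0.39 and -0.97 on day 8, while the other 8 stay between -0.18 and 0.25.

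Among the type I enzymes, PRMT1, which places most asymmetric dimethylarginine in mammalian cells, held a signal between 13.33 and 13.84 on the 24 arrays. It differed from DMSO on day 8 by 0.06 with 100 nM (95% interval -0.13 to 0.24). CARM1, a transcriptional coactivator also called PRMT4, differed by 0.13 with 100 nM (95% interval -0.10 to 0.36) and stayed between 12.64 and 13.15 throughout. PRMT3, a cytosolic enzyme that methylates the ribosomal protein RPS2, differed by 0.22 with 100 nM (95% interval -0.06 to 0.49). PRMT6, a nuclear enzyme that acts on histone tails, differed by 0.06 (95% interval -0.11 to 0.23). These intervals leave out a difference as large as that of PRMT8. PRMT8 was chosen on that difference, so this does not show that it is particular in the family.

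PRMT2, a weakly active type I enzyme with an SH3 domain, came closest to a call. Its signal was 10.23, 10.26 and 10.21 in DMSO on day 8 and 10.50, 10.51 and 10.43 after 50 nM for 12 h, with no overlap. It was the 1 of the 8 members without overlap in this comparison, against 23.6% of all genes. The difference of 0.25 missed the threshold (limma, adjusted p = 0.054). Its 3 probes gave 0.08, 0.16 and 0.51, so that 1 probe (A_24_P151498) carried most of it. With 100 nM PRMT2 differed by 0.18 (limma, adjusted p = 0.16).

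The type II and III enzymes gave no call on day 8 either. PRMT5, the main source of symmetric dimethylarginine, differed from DMSO by 0.08 with 100 nM, -0.16 with 50 nM for 24 h and 0.21 with 50 nM for 12 h (SE 0.12 each). PRMT7 differed by -0.08, -0.16 and 0.18 in the same order (SE 0.12 each). PRMT9, which methylates a splicing factor, differed by -0.15, -0.10 and -0.01 (SE 0.16 each). PRMT5 and PRMT7 were thus above DMSO after 12 h and below it after 24 h of 50 nM, as was PRMT1. In the test of 24 h against 12 h, 0 of 9 members passed (0.537% of all genes did), while 4 of 9 had an unadjusted p under 0.05, beside 10.9% of all genes. These were PRMT1 (-0.22), PRMT2 (-0.24), PRMT5 (-0.36) and PRMT7 (-0.34), all lower after 24 h, at limma adjusted p of 0.33, 0.19, 0.24 and 0.25. Between 100 and 50 nM for 24 h, 0 of 8 members and 0% of all genes passed in limma. At an unadjusted p under 0.05 there were 2 of 8 members, PRMT1 (0.23) and PRMT2 (0.17), both higher with 100 nM, beside 4.17% of all genes. Groups did not overlap for 1 of the 8, PRMT1, against 11.2% of all genes.

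After recovery no member passed the test against DMSO. Of the 8, 0 passed in limma after 100 nM, 50 nM for 24 h or 50 nM for 12 h, where 0% of all genes passed in each comparison. At an unadjusted p under 0.05 the counts were 1, 0 and 0 of the 8, against 7.21%, 3.28% and 3.47% of all genes. Groups did not overlap for 1, 0 and 1 of the 8, against 7.84%, 7.15% and 7.43% of all genes. The 1 member with an unadjusted p under 0.05 was PRMT3, with 6.75, 6.91 and 6.92 in DMSO and 6.69, 6.68 and 6.17 after 100 nM. Its difference of -0.35 (limma, adjusted p = 0.64) was -0.18 without the array that stood apart. The change with 100 nM differed between the days for 0 of the 8 members (2.44% of all genes), and 1 of 8 had an unadjusted p under 0.05 (14.4%). PRMT3 was nearest, at 0.22 above DMSO on day 8 and 0.35 below it on day 15, a difference of -0.56 between the days (limma, adjusted p = 0.13) and of -0.40 without that array.

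Some members changed between the days. In DMSO, 2 of 8 changed from day 8 to day 15, against 23.2% of all genes. PRMT6 fell and PRMT2 rose. After 50 nM for 24 h, 3 of 9 changed (28.8% of all genes), and after 50 nM for 12 h, 4 of 9 (28.2%). After 100 nM, a comparison added after the data had been seen, 2 of 8 changed (30.6%), or 3 of 8 without the array that stood apart, where PRMT5 also passed (-0.41, limma adjusted p = 0.031). At an unadjusted p under 0.05 the counts were 5 of 8 in DMSO (33.7% of all genes), 4 of 9 after 50 nM for 24 h (37.7%), 5 of 9 after 50 nM for 12 h (38%) and 6 of 8 after 100 nM (39.9%). Groups did not overlap for 6, 3, 6 and 4 of the 8 members other than PRMT8, against 40%, 42.4%, 41.6% and 39.8% of all genes. The shares that passed the adjusted test are near those of all genes, and with 8 or 9 members they say nothing particular of the family.

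PRMT6 fell in all 4. Its signal was 9.04, 8.91 and 9.09 in DMSO on day 8 and 8.55, 8.67 and 8.57 in DMSO on day 15. With rotenone it ran from 8.98 to 9.25 on day 8 and from 8.44 to 8.80 on day 15. The 12 arrays of day 8, from 8.91 upward, did not overlap with the 12 arrays of day 15. The share of all genes with such a split was not computed, and in DMSO alone 40% of all genes did not overlap between the days. The probe sits on 10 spots of each array, and 13 of its spot values were left out for outlier flags. The log2 change was -0.42 in DMSO (SE 0.083, limma adjusted p = 0.0010), -0.62 after 50 nM for 24 h (limma, adjusted p = 1.2e-05), -0.38 after 50 nM for 12 h (limma, adjusted p = 0.0017) and -0.38 after 100 nM (limma, adjusted p = 0.0017). Within slides the change in DMSO was -0.49, -0.23 and -0.52. The change in DMSO and after 50 nM for 12 h did not pass with slides 2 and 3 alone (-0.38 and -0.40, limma adjusted p of 0.12 and 0.082), which leaves 2 arrays a group. The change after 100 nM did not pass there either (-0.40, limma adjusted p = 0.066), and was -0.33 without the array that stood apart (limma, adjusted p = 0.011).

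PRMT2 rose from 10.23, 10.26 and 10.21 to 10.60, 10.47 and 10.49 in DMSO, by 0.29 (SE 0.073, limma adjusted p = 0.0073), with 0.38, 0.21 and 0.27 within slides. All 3 probes were higher (0.39, 0.28 and 0.19). It rose by 0.33 after 50 nM for 24 h (limma, adjusted p = 0.0021). After 50 nM for 12 h it differed by 0.01 (limma, adjusted p = 0.93), where the probes disagreed at 0.31, 0.11 and -0.38. Without the adjustment of slide 1 the rises in DMSO and after 50 nM for 24 h were 0.29 and 0.32 and did not pass (limma, adjusted p of 0.20 and 0.11).

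PRMT3 fell after each rotenone treatment. The change was -0.79 after 100 nM, from 7.32, 7.39 and 7.19 to 6.69, 6.68 and 6.17 (SE 0.13, limma adjusted p = 0.00012), and -0.62 without the array that stood apart (limma, adjusted p = 0.00044). It was -0.41 after 50 nM for both times (limma, adjusted p of 0.022 for 24 h and 0.025 for 12 h). In DMSO it differed by -0.22 and did not pass (limma, adjusted p = 0.25). The test of the difference between 100 nM and DMSO was the one given above, which did not pass (limma, adjusted p = 0.13). The changes after 50 nM were not tested against that in DMSO, so a fall particular to rotenone is not shown. The 24 h call was lost under 3 of 12 processing alternatives and the 12 h call under 5, among them scaling to the 75th percentile (-0.25, limma adjusted p = 0.074) and scaling of the processed signal (-0.27, limma adjusted p = 0.080). Each of the 50 nM calls was also lost without 3 arrays taken out singly. For 24 h these were replicates 2 and 3 of day 8 and replicate 3 of day 15, with limma adjusted p of 0.050 to 0.11. For 12 h they were replicates 2 and 3 of day 8 and replicate 1 of day 15, with limma adjusted p of 0.072 to 0.13.

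PRMT5 and PRMT7 fell after 50 nM for 12 h, by 0.45 and 0.40 on the log2 scale (limma, adjusted p of 0.010 and 0.014). Both were highest of all groups after 12 h of 50 nM on day 8, at 9.67, 9.43 and 9.32 for PRMT5 and at 8.84, 8.65 and 8.55 for PRMT7. Both calls were lost without replicate 1 of that group (-0.33 and -0.31, limma adjusted p of 0.073 and 0.089), and the call of PRMT7 also without replicate 2 of the day 15 group (-0.31, limma adjusted p = 0.077). Under processing alternatives the PRMT5 call was lost in 3 of 12 and the PRMT7 call in 5 of 12, among them scaling to the 75th percentile (-0.32, limma adjusted p = 0.16). Over all alternatives PRMT7 ran from -0.62 to -0.31. In DMSO they differed by -0.30 each (limma, adjusted p of 0.087 and 0.079), and PRMT9 by -0.42 (limma, adjusted p = 0.058). The changes after 50 nM were not tested against those in DMSO. PRMT1 and CARM1 passed in no comparison.

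**Figure D4:**
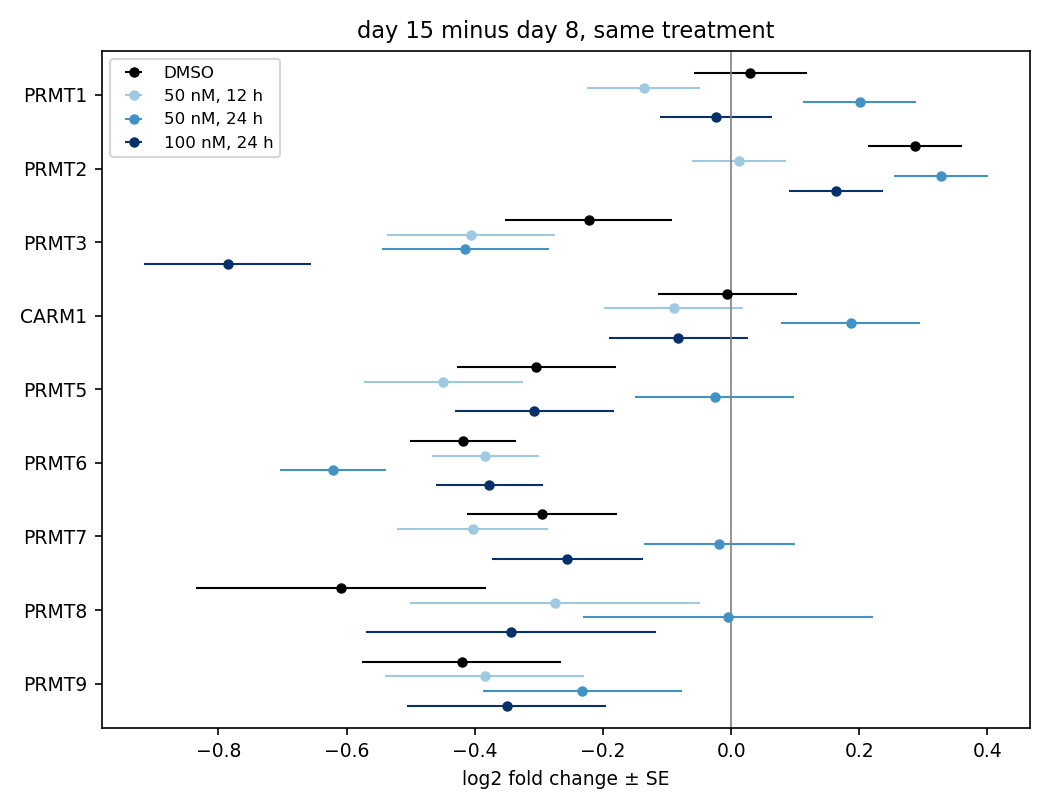
Log2 fold change of day 15 over day 8 within each treatment for the 9 members, with points for the fitted difference and bars for its SE. PRMT6 lies between -0.38 and -0.62 under all 4 treatments, PRMT3 reaches -0.79 after 100 nM, and PRMT2 is the 1 member that rose in DMSO.

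The genes whose pattern was most like that of PRMT8 were found by the Pearson correlation of the 8 group means, among 5307 genes well above background on all arrays whose means spanned at least 1.5-fold. They were ESPL1, which encodes separase (r = 0.97), the receptor gene GPR19 (0.95), the zinc finger gene ZNF596 (0.95), the noncoding RNA LINC00683 (0.94) and the zinc finger gene ZSCAN12 (0.94). Over the 24 arrays the values were 0.61, 0.80, 0.79, 0.79 and 0.76. All 5 were highest in DMSO on day 8 and lowest after 100 nM on day 15, as PRMT8 was. They were picked for following the PRMT8 means, so nothing is read from this likeness. Their means spanned 0.62 to 0.70 against 1.31 for PRMT8. The points share slides, normalization and the array that stood apart, and the correlations were not computed without it. Among the members, PRMT9 (0.67) and PRMT7 (0.63) were closest and PRMT2 farthest (-0.54).

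Enzymes, partners, readers, cofactor genes and substrates of arginine methylation were also examined, 48 genes in 8 lists, of which 46 were tested. RIOK1 had no named probe and the probe of AGXT2 did not pass the filter. With 100 nM on day 8, 6 of the 46 (13.0%) passed, 3 higher and 3 lower, against 9.48% of all genes. Counts were 4 of 46 (8.70%) with 50 nM for 24 h, against 8.02% of all genes, and 3 of 46 (6.52%) with 50 nM for 12 h, against 5.52%, both near the share of all genes. After recovery 0 of 46 passed in limma with each treatment, where 0% of all genes passed in each comparison. Of the 6 calls with 100 nM, 2 to 4 were made when any of the 6 arrays was left out.

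Known substrates held 3 of the 6 calls, with 1 of 17 higher and 2 lower and a median of -0.01 against -0.02 over all genes. EWSR1, an RNA-binding protein with a long arginine and glycine rich region, had 9.54, 9.46 and 9.20 in DMSO on day 8 and 8.52, 8.50 and 8.53 with 100 nM. It fell by 0.88 (SE 0.12, limma adjusted p = 0.00012), with -0.95, -0.41 and -1.28 for its 3 probes. It also fell by 0.86 with 50 nM for 24 h (limma, adjusted p = 0.00022) and by 0.51 with 50 nM for 12 h (limma, adjusted p = 0.017). The last call was lost without replicate 1 or 2 of DMSO or replicate 2 or 3 of the treated group (limma, adjusted p of 0.066 to 0.099). After recovery from 100 nM it differed from DMSO of day 15 by 0.11 (limma, adjusted p = 0.86), and by 0.11 without the array that stood apart. That control is lower, since EWSR1 fell by 0.43 from day 8 to day 15 in DMSO (limma, adjusted p = 0.015). FBL, the methyltransferase of ribosomal RNA, rose by 0.35 with 100 nM (limma, adjusted p = 0.035) and is named because it passed. The FBL call was lost without replicate 2 of DMSO or any of the 3 treated arrays, and under 4 of 12 processing alternatives.

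BTG1, an antiproliferative partner of PRMT1, fell by 0.47 with 100 nM (limma, adjusted p = 0.028), while its relative BTG2 differed by -0.00 (limma, adjusted p = 0.99). The BTG1 call was lost without replicate 1 or 3 of DMSO or replicate 1 or 3 of the treated group. CNOT7, a deadenylase subunit that binds BTG proteins, differed by 0.14. Among readers, PHF19 rose by 0.32 (limma, adjusted p = 0.021). Its Tudor domain is best known for binding methyl-lysine. The PHF19 call was lost without replicate 2 of DMSO or replicate 1 of the treated group (limma, adjusted p of 0.092 and 0.12). The splicing factor SMNDC1 differed by -0.19. METTL23, an arginine methyltransferase outside the family, rose by 0.24 (limma, adjusted p = 0.048), a call that was lost without any single array of the 6. The METTL23 call was also lost under 9 of 12 processing alternatives, among them slide as a block in place of the adjustment (0.24, limma adjusted p = 0.052). The BTG1 and PHF19 calls were lost under 4 of 12 each.

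No gene of cofactor supply or methylarginine breakdown passed with 100 nM on day 8. MAT2A and MAT2B, subunits of S-adenosylmethionine synthetase, differed by -0.14 and -0.30. AHCY, which removes S-adenosylhomocysteine, differed by 0.13 and its relative AHCYL1 by -0.28. DDAH1 and DDAH2, which degrade free methylarginines, differed by 0.02 and 0.07. WDR77, the partner of PRMT5, differed by 0.15 and the adaptor CLNS1A by 0.20, and 0 of the 3 tested genes of the PRMT5 complex passed. NDUFAF7, which methylates a complex I subunit and is needed for complex I assembly, differed by 0.10 (SE 0.091, limma adjusted p = 0.64). PADI1 and PADI2, which turn arginine into citrulline, differed by 0.34 and 0.22.

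Between the days in DMSO, 14 of the 46 (30.4%) changed, 12 of them lower, against 23.2% of all genes. PADI2 had 7.68, 7.57 and 7.83 on day 8 and 5.54, 5.65 and 5.93 on day 15, and fell by 1.99 on the log2 scale (limma, adjusted p = 1.1e-09). BTG2 fell by 1.33 (limma, adjusted p = 8.15e-10), from 11.41, 11.37 and 11.36 to 10.09, 10.06 and 10.01. WDR77 fell by 0.41 (limma, adjusted p = 0.00094) and NDUFAF7 by 0.45 (limma, adjusted p = 0.0013). AHCY, AHCYL1 and DDAH2 fell by 0.54, 0.40 and 0.55 (limma, adjusted p of 0.028, 0.014 and 0.010). EWSR1 and FBL fell by 0.43 and 0.36 (limma, adjusted p of 0.015 and 0.016), each call being lost in 3 of 6 fits without a single array. METTL23 rose by 0.36 (limma, adjusted p = 0.0013). DDAH1 differed by 0.24 (limma, adjusted p = 0.35), where its 2 probes gave 0.56 and -0.08, and by 0.58 in the fit with slide as a block (limma, adjusted p = 0.00031). With 1 array of each group on each slide, the slide term alone leaves a difference unchanged. The filter on dim signal was applied anew in that fit, and which probes of DDAH1 it kept was not examined. CNOT7 differed by -0.32 (limma, adjusted p = 0.12) and by -0.31 with slide as a block (limma, adjusted p = 0.024). Across the single arrays left out, 10 to 12 genes passed.

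**Figure D5:**
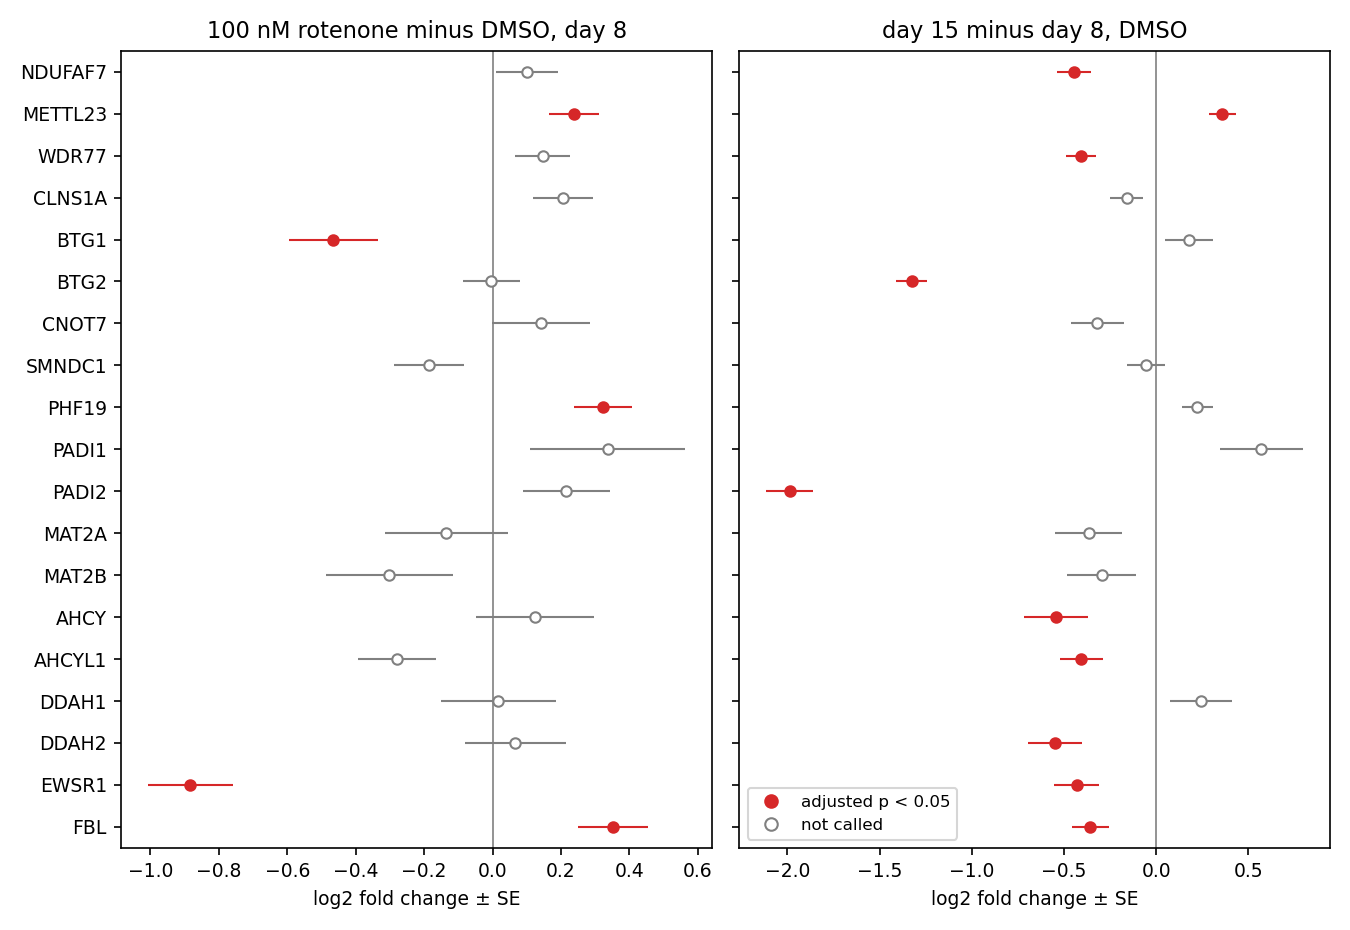
Log2 fold change of named genes of arginine methylation with 100 nM rotenone on day 8 (left) and from day 8 to day 15 in DMSO (right), with bars for the SE and filled points for a limma adjusted p under 0.05. EWSR1 (-0.88) lies lowest on the left, and PADI2 (-1.99) and BTG2 (-1.33) on the right.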

How the data were processed

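RNA of 24 arrays was analysed, 3 in each of 8 groups taken from the sample labels. The authors deposited the intensity of each spot (median signal, local background and processed signal) as written by Agilent Feature Extraction 11.5.1.1 for slides 1 and 3 and 12.0.0.7 for slide 2, per the file headers. They also deposited log2 values normalized by themselves, used here as an alternative. Submitters' notes name R 3.5. Per the labels, slide 1 was a repeated slide that needs batch correction.

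Here the median signal was background corrected (normexp, offset 0), converted to log2, quantile normalized and adjusted for slide 1 against slides 2 and 3 by an own version of ComBat that kept the group differences, checked on simulated data. A spot stayed in if 3 or more arrays exceeded 1.1 times the 95th percentile of 308 negative control spots, and outlier values were dropped. Probes were named by transcript from RefSeq (30275 of 50599) and averaged per gene. The files use another build than GRCh38.p14, so that gene positions are given only for RefSeq promoters. Groups were compared with limma 3.58.1 (R 4.3.3, with version 1.17.8 of the data.table package) in a single fit of all arrays, two-sided, with 16 residual degrees of freedom, adjusted by Benjamini-Hochberg over 21239 genes. The fit does not count the degrees of freedom that ComBat used. The share of spots well above background was 48.1% to 80.5% per array. Precision is limited by having 3 arrays a group.

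Members and lists were chosen with earlier results of these data known. All members are named, and of each list the 2 genes with the smallest p with 100 nM on day 8 plus WDR77, CLNS1A, MAT2A, AHCY, DDAH1, NDUFAF7 and BTG2. FBL and the markers that passed were named after their values were seen. Some genes of the lists are not reported here by name and stay in the counts of their lists. PRMT8 was to be tested between the days in DMSO, and its value is given without a test instead. Replicate numbers are slide numbers. Arrays of the same slide departed together from their group means, with correlations of 0.16 or more in all 84 pairs (median 0.44). The median was -0.35 in 168 pairs from different slides. Departures from a group mean cancel over the slides, so departures shared within a slide bring negative values between slides. Because replicate and slide numbers coincide, differences between slides alone would give this pattern. Whether the samples behind a replicate number were paired therefore cannot be told from these correlations. Alternatives were other background corrections, scalings and filters, the slide as a block, no batch correction, fewer arrays in the fit, the brightest probe of a gene and each array left out.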

Additional observations from a re-analysis of the deposited data

Results flagged for a closer look

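EWSR1 and PHF19 were singled out because their change with 100 nM rotenone differed between the days in a test of the difference itself. For EWSR1 the change on day 15 minus that on day 8 was 0.995 on the log2 scale (SE 0.17, limma adjusted p = 0.0035), with 0.86, 0.78 and 1.35 for its 3 probes. Without replicate 3 of the day 15, 100 nM group, the array that stood apart, it was 0.998 (limma, adjusted p = 0.0082). It did not pass without batch correction (0.99, limma adjusted p = 0.25) or with slides 2 and 3 alone (0.93, limma adjusted p = 0.14). The EWSR1 signal in DMSO was itself 0.43 lower on day 15 than on day 8 (limma, adjusted p = 0.015). For PHF19 the difference between the 2 changes was -0.469 (SE 0.12, limma adjusted p = 0.047), with -0.71 and -0.23 for its 2 probes. On day 15 the probes of PHF19 differed from DMSO in opposite directions (-0.39 and 0.10). The PHF19 call was lost under 7 of 12 alternatives, among them the slide as a block (-0.47, limma adjusted p = 0.054), and in 11 of the 12 fits without a single array.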

How the results depend on the processing

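No result changed direction past its threshold under the 12 alternatives or with single arrays left out. The PRMT8 difference with 100 nM on day 8 was -0.64 with a normexp offset of 50 and between -0.94 and -0.98 under the other alternatives, and single arrays left out gave -1.11 to -0.84. On day 15 it ran from -0.99 (slides 2 and 3 alone) to -0.33, and from -0.95 to -0.34 with single arrays left out. With a replicate block, slide being a term of the fit and ComBat left out, it was -0.96 on day 8 and -0.74 on day 15, and no count of members called changed. Members called with 50 nM for 12 h on day 8 (0) became 1 with the processed signal, the offset of 50, scaling to the 75th percentile or the filter on spots well above background, each time PRMT2, and 2 with the deposited values. Between the days in DMSO (2) the count was 4 with the offset of 50 or the deposited values, 1 without batch correction or with the compared groups alone in the fit, and 0 with slides 2 and 3 alone. After 50 nM for 24 h (3) it was 1 without batch correction, with slides 2 and 3 alone or with the compared groups alone. After 50 nM for 12 h (4) it was 1 without batch correction or with the compared groups alone, 0 with slides 2 and 3 alone, and 2 to 4 with single arrays left out. For 24 h against 12 h (0) it was 1 with the processed signal, and for the change between the days (0) it was 1 with the deposited values. After 100 nM (2, a comparison added after seeing the data) it was 1 with slides 2 and 3 alone or with the compared groups alone, 4 with scaling to the 75th percentile, the brightest probe or the deposited values, and 2 to 3 otherwise. Members called against DMSO stayed at 0 under all settings run with 100 nM and 50 nM for 24 h on day 8 and with each treatment on day 15, as for 100 against 50 nM. Over all genes, calls with 100 nM on day 8 (2014) ran from 295 with slides 2 and 3 alone to 2841 with the deposited values. They ran from 232 to 2526 with 50 nM for 24 h (1704) and from 68 to 1883 with 50 nM for 12 h. Between the days in DMSO (4935) they ran from 1988 with slides 2 and 3 alone to 6005 with the deposited values. Between the days after rotenone they ran from 3473 to 6999 for 50 nM for 24 h (6126) and from 2878 to 6984 for 50 nM for 12 h (5989). After 100 nM (6499) the range between the days was 3500 to 7390. Pathway genes called with 100 nM on day 8 (6) ran from 1 to 8, and between the days in DMSO (14) from 3 to 20. Scaling the processed signal to its 75th percentile moved the median of all genes between the days in DMSO to 0.15, and PRMT6 and PRMT2 were then at -0.50 and 0.22, PRMT3 at -0.05. The causes of these shifts were not tested.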
